A study of Mus musculus with 12 samples.

Results

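The genes described here are 45 mouse genes whose products make up the lysosome or control its genes, taken by symbol from a fixed list out of 12441 genes measured by RNA sequencing in bone marrow-derived macrophages. All 45 were found in the tables, each as 1 gene. By role they are 18 soluble hydrolases, 4 soluble cofactors and other lumenal proteins, 9 membrane proteins, 11 genes of the V-ATPase and 3 transcription factors (Tfeb, Tfe3 and Mitf). The macrophages were grown from bone marrow for 6 days with L929-conditioned medium, a source of macrophage colony-stimulating factor. They carried either wild-type (WT) Coq6 or the D316Y change in COQ6, a mitochondrial enzyme of coenzyme Q synthesis, and were left unstimulated or given 100 ng/mL lipopolysaccharide (LPS) for 24 h. LPS is a bacterial cell wall component that activates macrophages. Each of the 4 groups, WT unstimulated, WT with LPS, D316Y unstimulated and D316Y with LPS, had 3 libraries, numbered as replicates 1 to 3. Whether the libraries of a group came from separate animals or cultures, how many copies of D316Y the cells carried, and the animals' strain, sex and age are not stated in the labels, so p-values measure the spread between these libraries.

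The lysosome is the acidic compartment in which macrophages digest engulfed particles and worn-out cell parts. Soluble hydrolases do the digestion, saposins and other small cofactors present lipids to them, membrane glycoproteins line and protect the organelle, and channels and transporters pass ions and digestion products across its membrane. The V-ATPase pumps protons inward: its cytosolic sector hydrolyses ATP and its membrane sector carries the protons. Tfeb, Tfe3 and Mitf are related transcription factors that bind a short palindrome, CACGTG, in the promoters of many lysosomal genes, and kinases at the lysosomal surface hold them in the cytoplasm when nutrients are plentiful.

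The promoters of the members were read for that palindrome, because Tfeb and its relatives are known to bind there. RefSeq promoter windows of 300 bases (assembly GRCm38.p6, mostly upstream of the transcription start and ending 50 bases past it) were matched for 38 of the 45 members. CACGTG, which reads the same on both strands, stood in a window of 12 of the 38 (31.6%), against 8.09% of all 27025 genes with a window and 1079 of the 8972 such genes in the tables. The longer TCACGTG, searched on both strands and always lying over a CACGTG, stood in 11 of the 38 (28.9%), against 4.29% and 7.28%. The genes with CACGTG were the hydrolases Ctsa, Ctsd, Ctsl, Gaa, Gla and Glb1, the membrane proteins Lamp1, Mcoln1 and Cln3, and the V-ATPase subunits Atp6v0b, Atp6v0e and Atp6v1a. No window of the 3 transcription factors or of the 4 soluble cofactors held it. Lamp1 had the most matches, 4, starting 61, 45, 28 and 15 bases before the start site, and Mcoln1 had 2, at 71 and 45 bases. Their windows are shown with every CACGTG in capitals, beside the windows of Atp6v0a1 and Lipa, the members with the largest falls after LPS, which hold none. The windows lie at chr8:13158911-13159210 (Lamp1, + strand), chr8:3500269-3500568 (Mcoln1, + strand), chr11:101010148-101010447 (Atp6v0a1, + strand) and chr19:34527425-34527724 (Lipa, - strand).
Lamp1: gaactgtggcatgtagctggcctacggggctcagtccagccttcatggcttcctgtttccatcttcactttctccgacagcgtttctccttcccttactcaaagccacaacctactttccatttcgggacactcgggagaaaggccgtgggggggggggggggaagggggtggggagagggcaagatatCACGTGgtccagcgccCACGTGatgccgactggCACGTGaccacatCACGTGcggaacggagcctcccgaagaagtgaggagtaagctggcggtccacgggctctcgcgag
Mcoln1: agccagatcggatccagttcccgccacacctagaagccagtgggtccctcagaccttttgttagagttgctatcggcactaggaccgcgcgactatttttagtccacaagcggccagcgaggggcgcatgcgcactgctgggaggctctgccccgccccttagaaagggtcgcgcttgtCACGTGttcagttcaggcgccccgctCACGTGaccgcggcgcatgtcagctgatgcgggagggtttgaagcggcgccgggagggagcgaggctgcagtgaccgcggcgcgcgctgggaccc
Atp6v0a1: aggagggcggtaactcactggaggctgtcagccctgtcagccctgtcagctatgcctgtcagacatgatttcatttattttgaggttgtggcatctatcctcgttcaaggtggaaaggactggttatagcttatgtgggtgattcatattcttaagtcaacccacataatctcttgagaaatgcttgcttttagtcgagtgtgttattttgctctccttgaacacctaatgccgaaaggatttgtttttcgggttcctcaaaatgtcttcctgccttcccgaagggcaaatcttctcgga
Lipa: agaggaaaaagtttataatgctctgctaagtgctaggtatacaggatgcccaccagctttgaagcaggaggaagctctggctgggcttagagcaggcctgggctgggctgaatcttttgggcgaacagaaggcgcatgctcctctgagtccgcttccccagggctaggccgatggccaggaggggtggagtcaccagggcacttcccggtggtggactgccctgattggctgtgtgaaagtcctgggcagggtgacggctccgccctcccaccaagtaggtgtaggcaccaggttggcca
A match is a description of the letters and not a measured binding site, and a window without the letters leaves the rest of the gene unread. The Atp6v0a1 window lies inside the gene as annotated in GENCODE, which begins at base 101009452, so the bases before that start were not read.

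The tables gave log2 CPM, read counts scaled to library size on a log2 scale, and the reads per gene could be recovered from them. Each library had 32.8 to 47.2 M reads on the genes of the table, and the lowest count of any member in any library was 471 reads, so counting error was small for all 45. All 10 macrophage markers listed were present, at a summed 43056 to 61075 CPM. This sum was mostly Lyz2, with 1171783 to 2369909 reads a library, where the next marker, Adgre1, reached at most 238332. None of the 3 markers listed for B cells, for T cells, for mast cells or for erythroid cells was in the tables. Replicate 1 of each unstimulated group stood apart from replicates 2 and 3. In these libraries 41 of 45 members (WT) and 39 of 45 (D316Y) were above the mean of replicates 2 and 3, by a median of 0.42 and 0.48 log2 units, against 0.08 and 0.03 for all genes. Their mitochondrially encoded reads were 0.449% and 0.949% of the table, against 1.97% to 2.97% in the other unstimulated libraries, and their ribosomal protein reads were 3.59% and 5.18%, against 7.27% to 9.19%. The part of these differences in the results was not tested, and the counts and medians that rest on these libraries are given with and without them.

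The lysosomal genes took a large share of the macrophages' reads. In unstimulated WT cells the 45 genes together held 9.89%, 6.86% and 7.25% of the reads in the table in replicates 1, 2 and 3, and in unstimulated D316Y cells 9.14%, 6.22% and 6.22%. With LPS the share was 5.02%, 3.89% and 4.47% in WT and 4.15%, 4.18% and 3.98% in D316Y. Every library with LPS was below every unstimulated library. Per reads of the table, the median of all genes also moved with LPS, by -0.51 log2 units in WT and -0.54 in D316Y. Ctsb, Ctsd and Psap weigh heavily in the share. They had 1354646, 860276 and 653338 of 46.9 M reads in unstimulated WT replicate 1, and 553070, 454360 and 280576 of 47.2 M in WT LPS replicate 1. They did not pass the LPS test on the deposited log2 CPM and were called lower when scaled to the reads of the table. The 18 hydrolases made up most of the share of the 45 genes, 4.15% to 6.20% of reads in unstimulated WT libraries and 2.40% to 3.09% with LPS. The 3 transcription factors made up the least, 0.0202% to 0.0225% and 0.00970% to 0.0135%. In bulk RNA, fewer cells with a transcript and less of it per cell cannot be told apart.

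**Figure D1:**
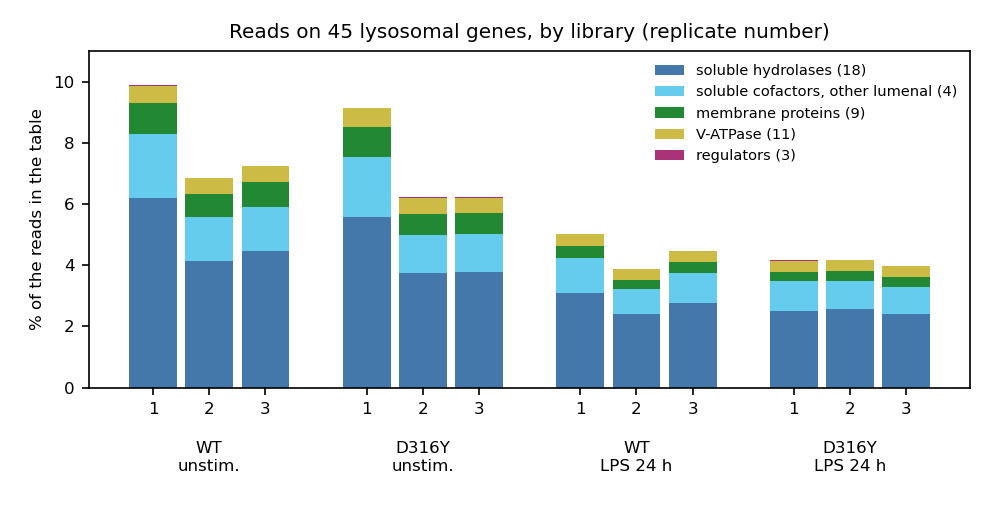
Percent of the reads in the table that fell on the 45 lysosomal genes in each of the 12 libraries, stacked by role, with the replicate number under each bar and no error since each bar is 1 library. The 6 unstimulated bars reach 6.22% to 9.89%, with replicate 1 highest in both genotypes, and the 6 LPS bars reach 3.89% to 5.02%.

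Per kilobase of exon, levels spanned a wide range. In unstimulated WT cells Ctsd, the aspartic protease cathepsin D, was highest, at 12.68, 11.95 and 12.12 log2 CPM per kilobase in replicates 1 to 3. Psap, the precursor of the saposins, followed at 12.06, 11.39 and 11.40, and Ctsb, the cysteine protease cathepsin B, at 11.97, 11.28 and 11.43. Ctsd exceeded Psap within each library, by 0.62, 0.57 and 0.72, although their ranges over libraries overlap because both were highest in replicate 1. Psap and Ctsb did not separate, with Psap above by 0.09 and 0.11 and then below (-0.03). Cd68, a heavily glycosylated membrane protein of macrophage lysosomes, came next at 11.10, 10.33 and 10.54, below Ctsb by 0.87 to 0.94 within each library. Mcoln1, a calcium-release channel of the lysosomal membrane, was lowest, at 1.98, 1.68 and 1.66 log2 CPM per kilobase, and its libraries overlapped those of Plbd2, a phospholipase B-like protein, at 2.31, 1.91 and 1.52. D316Y cells had the same 5 genes at the top in unstimulated libraries, by mean Ctsd, then Psap (11.42), Ctsb (11.32), Cd68 (10.47) and Ctsz (10.21), and the same 2 at the bottom. With LPS, Ctsd stayed first by mean (11.99 in WT, 11.78 in D316Y), Ctsz was second (11.24 and 11.09), and Tfeb was last (1.61 and 1.44).

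After 24 h of LPS the lysosomal genes of WT cells moved both ways. By a limma model over all 12 libraries, with Benjamini-Hochberg adjustment over all genes tested and a threshold of 0.05, 9 of 45 members rose, where 18.1% of all 11663 genes tested rose, and 12 fell, where 19.0% of all genes fell. The rises were Ctsc, Neu1, Npc2, Ctsz, Ppt1, Plbd2, Atp6v1e1, Lamp1 and Ctsh, from 1.70 down to 0.52 log2 units. The falls were Atp6v0a1, Lipa, Cd68, Tfeb, Atp6v1b2, Man2b1, Laptm5, Hexa, Cd63, Npc1, Gusb and Atp6v1c1, from -3.10 to -0.50. The other 24 members had differences between -0.66 and 0.41 that did not pass. The median of the 45 members was -0.16, beside -0.0056 for all genes. In D316Y cells, 7 members rose (19.4% of 11795 genes rose) and 12 fell (19.0%), with a member median of -0.06 beside -0.03 for all genes. The 7 were all among the 9 of WT and the 12 falls were the same genes, so that 24 members passed in neither genotype. Without the 2 unstimulated replicate 1 libraries, 10 rose and 13 fell in WT and 12 and 12 in D316Y, with member medians of -0.04 and 0.0091. All calls but that of Npc1 in WT were kept, and none of the called differences moved by over 1.5 times. The member median was unsteady: with single libraries left out it ran from -0.24 to -0.04 in WT, nearest 0 without unstimulated replicate 1 (-0.04) or LPS replicate 2 (-0.06), and from -0.20 to 0.0091 in D316Y.

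These splits depend on how libraries are scaled. The deposited values imply library sizes of 1.19 to 1.32 times the table's reads in unstimulated libraries and 0.826 to 0.922 times with LPS. Scaling to the reads of the table instead moved the median difference of all genes to -0.51 in WT and -0.54 in D316Y, and the members then split into 3 rises and 28 falls in WT and 3 and 26 in D316Y. The member median became -0.67 in WT and -0.57 in D316Y, which is 0.16 and 0.03 below that of all genes. These gaps equal those of the deposited scale by construction, since a change of library size shifts every gene of a library alike. Quantile normalization gave 6 rises and 21 falls in WT and 5 and 20 in D316Y, with a member median 0.35 and 0.29 below that of all genes. The 3 rises left when scaling to the table were Ctsc, Neu1 and Npc2 in both genotypes, and all 12 falls were called under both scalings.

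**Figure D2:**
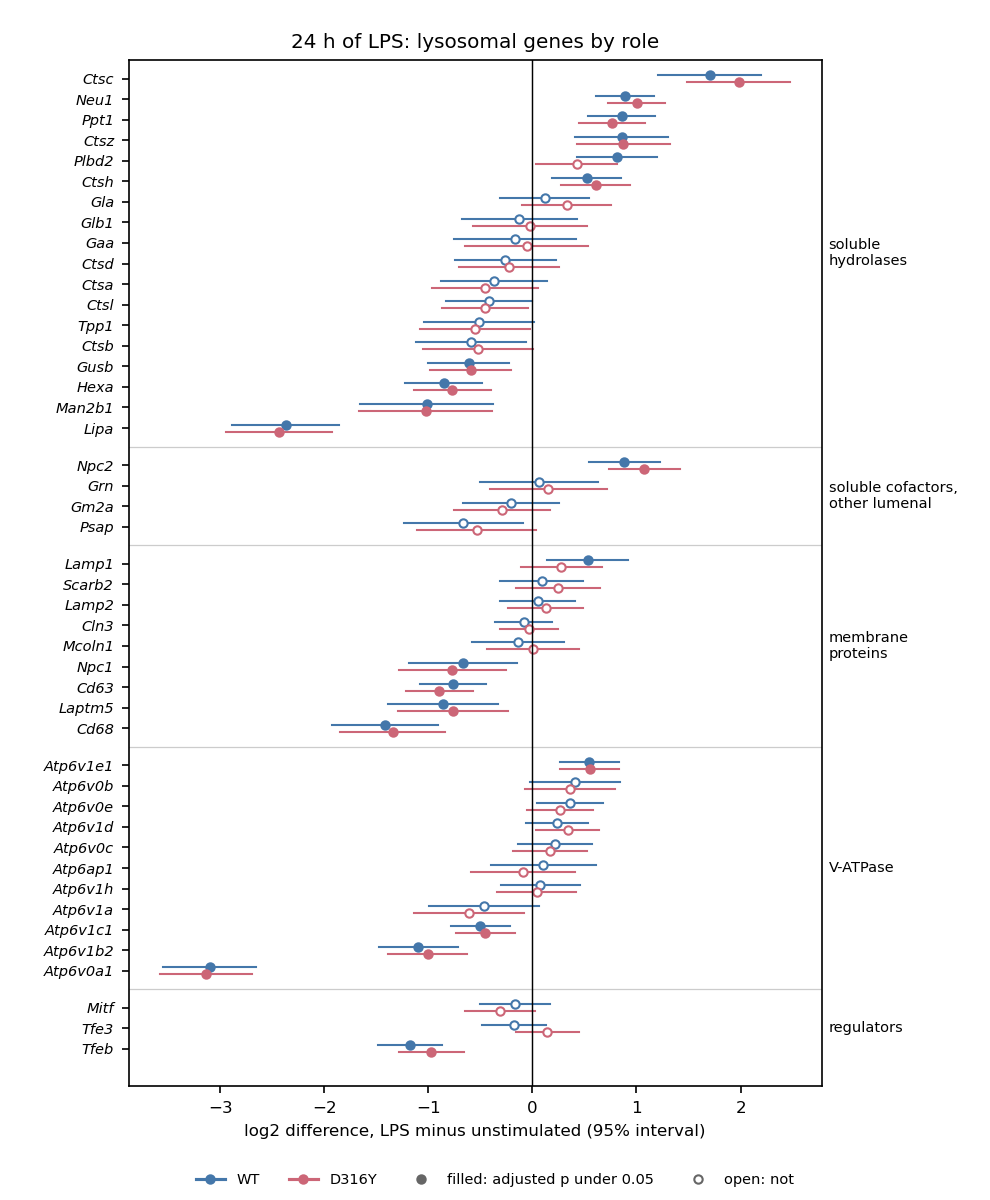
Difference in log2 CPM between LPS and unstimulated libraries for each of the 45 members, grouped by role, with 95% intervals from limma for WT and D316Y (3 libraries a group) and filled points where the adjusted p was under 0.05. The intervals of both genotypes overlap for every member, with Ctsc farthest to the right (1.70 and 1.98) and Atp6v0a1 farthest to the left (-3.10 and -3.13).

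Among the 18 soluble hydrolases, 6 rose and 4 fell in WT cells. Ctsc, the dipeptidyl peptidase that activates granule serine proteases, rose most. It read 9.56, 8.64 and 8.72 log2 CPM in unstimulated WT libraries and 10.81, 10.56 and 10.65 with LPS. In D316Y it read 8.91, 8.35 and 8.52, and 10.57, 10.68 and 10.46 with LPS. The groups did not overlap in either genotype, and the rise was 3.26-fold in WT (log2 difference 1.70, SE 0.23, adjusted p = 6.4e-05) and 3.95-fold in D316Y (1.98, SE 0.23, adjusted p = 1.5e-05). Without both unstimulated replicate 1 libraries these were 2.00 and 2.14. Neu1, the sialidase that trims sialic acids from glycoproteins and glycolipids, read 6.81, 6.91 and 6.94 log2 CPM after LPS in WT cells. Its D316Y libraries after LPS read 6.75, 6.83 and 6.64, and both sets lay above all its unstimulated libraries, a rise that was 1.85-fold in WT and 2.00-fold in D316Y. The cathepsins Ctsz, a carboxypeptidase, and Ctsh, an aminopeptidase, rose by 0.86 and 0.52 in WT and by 0.87 and 0.61 in D316Y. The call for Ctsh was lost after quantile normalization in both genotypes (0.18, adjusted p = 0.35, and 0.30, adjusted p = 0.12) and, fitted on the 6 WT libraries alone, in WT (adjusted p = 0.055). Ppt1, which removes palmitate from proteins, rose by 0.86 and 0.77. Plbd2 read 5.03, 4.63 and 4.25 without LPS and 5.53, 5.24 and 5.58 with it in WT, a rise of 0.81, and its difference in D316Y was 0.43 (adjusted p = 0.078). Of the 7 cathepsins these 3 rose, and Ctsa, Ctsb, Ctsd and Ctsl did not pass in either genotype, with differences between -0.59 and -0.22.

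Lipa, the acid lipase that frees cholesterol and fatty acids from engulfed lipoproteins, fell most among the hydrolases. Its unstimulated WT libraries read 11.18, 10.49 and 10.55 log2 CPM and those with LPS 8.54, 8.25 and 8.32. The D316Y libraries read 11.15, 10.36 and 10.27, and 8.23, 8.09 and 8.15 with LPS. Every LPS library was far below every unstimulated one, a 5.17-fold fall in WT (log2 difference -2.37, SE 0.24) and a 5.40-fold fall in D316Y (-2.43, SE 0.24). The 3 other hydrolases that fell cut sugars from glycans: Man2b1, the lysosomal alpha-mannosidase (-1.01 in WT, -1.03 in D316Y), Hexa, the alpha subunit of beta-hexosaminidase (-0.85 and -0.77), and Gusb, beta-glucuronidase (-0.61 and -0.59). Without both unstimulated replicate 1 libraries Man2b1 differed by -0.71 and -0.73. Without 1 library, the call for Man2b1 was lost in WT when unstimulated replicate 1 or LPS replicate 2 was left out (adjusted p 0.056 to 0.077), and so was that for Gusb (0.053 to 0.072).

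Among the 4 soluble cofactors, Npc2 rose and the others did not pass. Npc2 is the small lumenal protein that binds cholesterol and hands it to Npc1. It read 10.79, 10.46 and 10.52 log2 CPM in unstimulated WT libraries and 11.41, 11.55 and 11.46 with LPS, and 10.47, 10.28 and 10.41 against 11.54, 11.54 and 11.30 in D316Y. The rise was 1.84-fold in WT (log2 difference 0.88, SE 0.16) and 2.11-fold in D316Y (1.08, SE 0.16), with no overlap. Npc1, the membrane protein that takes cholesterol onward, fell (-0.67 in WT, -0.77 in D316Y), so the 2 partners of cholesterol export went opposite ways. The fall of Npc1 was near the threshold (adjusted p = 0.044 in WT) and was lost when unstimulated WT replicate 1 or 2 or WT LPS replicate 2 or 3 was left out (adjusted p 0.063 to 0.197). Psap had a difference of -0.66 in WT and -0.54 in D316Y, and Grn, progranulin, 0.06 and 0.15.

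Among the 9 membrane proteins, 1 rose and 4 fell in WT. Cd68 fell most: 11.43, 10.66 and 10.87 log2 CPM without LPS and 9.62, 9.53 and 9.56 with it in WT, and 11.29, 10.52 and 10.60 against 9.59, 9.57 and 9.22 in D316Y. That is 2.67-fold in WT (log2 difference -1.42, SE 0.24) and 2.54-fold in D316Y (-1.34, SE 0.24), with no overlap. Laptm5, a lysosomal membrane protein of blood cells, and Cd63, a tetraspanin, also fell in WT (-0.86 and -0.76) and in D316Y (-0.76 and -0.89). Lamp1, the abundant glycoprotein of the lysosomal lining with 4 palindromes in its promoter window, rose by 0.53 in WT (SE 0.18, adjusted p = 0.033), and its difference in D316Y was 0.28 (SE 0.18, adjusted p = 0.25). Its WT libraries read 7.39, 6.88 and 7.11 and then 7.69, 7.98 and 7.31 with LPS, so that the groups overlapped, and its unstimulated D316Y libraries read 7.01, 6.78 and 6.98. The call was lost when unstimulated WT replicate 2 or 3 or WT LPS replicate 1 or 2 was left out (adjusted p 0.074 to 0.150), after quantile normalization (0.22, adjusted p = 0.29) and in a fit of the 6 WT libraries alone (adjusted p = 0.087). Lamp1 overlaps the exons of Grtp1 on the other strand, and no label says whether the counting used strand. Lamp2, Mcoln1, Cln3 and Scarb2 had differences between -0.14 and 0.25 in both genotypes and did not pass.

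The V-ATPase genes did not move as 1 unit: 1 of 11 rose and 3 fell in each genotype. Atp6v0a1, an isoform of the large membrane-sector subunit through which protons pass, had the largest fall of all 45 members. It read 8.38, 8.26 and 8.32 log2 CPM in unstimulated WT libraries and 5.42, 4.88 and 5.35 with LPS. In D316Y it read 8.75, 8.20 and 7.85, and 4.98, 5.16 and 5.25 with LPS. The fall was 8.59-fold in WT (log2 difference -3.10, SE 0.21) and 8.77-fold in D316Y (-3.13, SE 0.21), and the groups lay more than 2 log2 units apart. The other membrane-sector genes, Atp6v0b, Atp6v0c and Atp6v0e, had differences of 0.17 to 0.41 that did not pass. In the cytosolic sector Atp6v1b2, an isoform of a nucleotide-binding subunit, fell. Its WT libraries read 8.81, 8.39 and 8.46 and then 7.52, 7.33 and 7.51, and its D316Y libraries 8.72, 8.14 and 8.11 and then 7.32, 7.36 and 7.27. Its log2 difference was -1.10 (SE 0.17) in WT and -1.01 (SE 0.17) in D316Y. Atp6v1c1 fell by less (-0.50 and -0.45). Atp6v1e1, part of the stalk that joins the sectors, was the subunit that rose. It read 7.67, 7.47 and 7.69 and then 8.11, 8.22 and 8.16 in WT, and 7.77, 7.50 and 7.55 and then 8.22, 8.22 and 8.03 in D316Y. The rise was 1.46-fold in WT (0.55, SE 0.13) and 1.47-fold in D316Y (0.55, SE 0.13), and it was no longer a call when scaled to the reads of the table (0.04 in both) or after quantile normalization (0.22 and 0.19).

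Osteoclasts, which share precursors with macrophages and use the V-ATPase to acidify bone, were 1 of the other cell types considered. Of 9 osteoclast markers 7 were in the tables, and their summed level was 262 to 433 CPM in unstimulated WT and 346 to 558 in unstimulated D316Y libraries, against 128 to 166 and 130 to 177 with LPS. The markers Dcstamp and Ocstamp, needed for osteoclast fusion, had 958 to 1782 and 116 to 189 reads in unstimulated WT libraries and 12 to 32 and 0 to 9 with LPS. Over the 7 markers 5 fell and 1 rose in each genotype, and the one that rose, Acp5, an acid phosphatase, went from 293 to 499 reads up to 3913 to 5138 in WT. Their part in the fall of Atp6v0a1 was not tested. Neutrophil markers, 5 of 10 in the tables, were at a summed 8.29 to 23.8 CPM in unstimulated WT and 27.5 to 45.6 CPM with LPS. In WT, S100a8 went from 134 to 507 reads up to 1035 to 1697, and Camp from 4 to 11 up to 130 to 234. Ngp went from 57 to 104 down to 21 to 52, Ltf from 8 to 113 down to 4 to 7, and S100a9 overlapped. Of the 4 tested in WT, 2 rose and 1 fell. Monocyte and progenitor markers, 5 of 6, were at 84.2 to 96.4 CPM in unstimulated WT and 168 to 222 CPM with LPS. The higher sum of the monocyte and progenitor markers was mostly Ly6c2, at 47 to 87 reads without LPS and 6717 to 9093 with it in WT. Of the 5, 2 rose and 3 fell in WT: Ccr2 went from 2688 to 3645 reads down to 737 to 1042, Cd34 from 57 to 91 down to 0 to 6, and Kit from 53 to 95 down to 16 to 32. Of the 10 macrophage markers, 5 rose and 1, Cd68, fell in each genotype. The part of the neutrophil, monocyte and macrophage markers in the results was not tested either.

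Of the 3 transcription factors, Tfeb fell. Tfeb read 5.35, 5.18 and 5.32 log2 CPM in unstimulated WT libraries and 4.09, 3.95 and 4.28 with LPS, and 4.85, 4.85 and 5.05 against 3.70, 4.13 and 4.01 in D316Y. The groups did not overlap, and the fall was 2.26-fold in WT (log2 difference -1.17, SE 0.14, adjusted p = 2.7e-05) and 1.96-fold in D316Y (-0.97, SE 0.14). Tfe3 read 6.65, 6.29 and 6.27 and then 6.22, 6.03 and 6.44 in WT, and 6.10, 5.98 and 6.15 and then 6.20, 6.24 and 6.22 in D316Y. Its difference was -0.18 (SE 0.14) in WT and 0.14 (SE 0.14) in D316Y, and neither passed. Mitf read 5.59, 5.73 and 5.46 and then 5.55, 5.21 and 5.52 in WT, and 6.04, 5.87 and 5.51 and then 5.62, 5.40 and 5.47 in D316Y. Its difference was -0.17 (SE 0.15) and -0.31 (SE 0.15), and the groups overlapped. These are transcript levels, whereas the activity of these factors is set largely by where the protein sits in the cell.

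**Figure D3:**
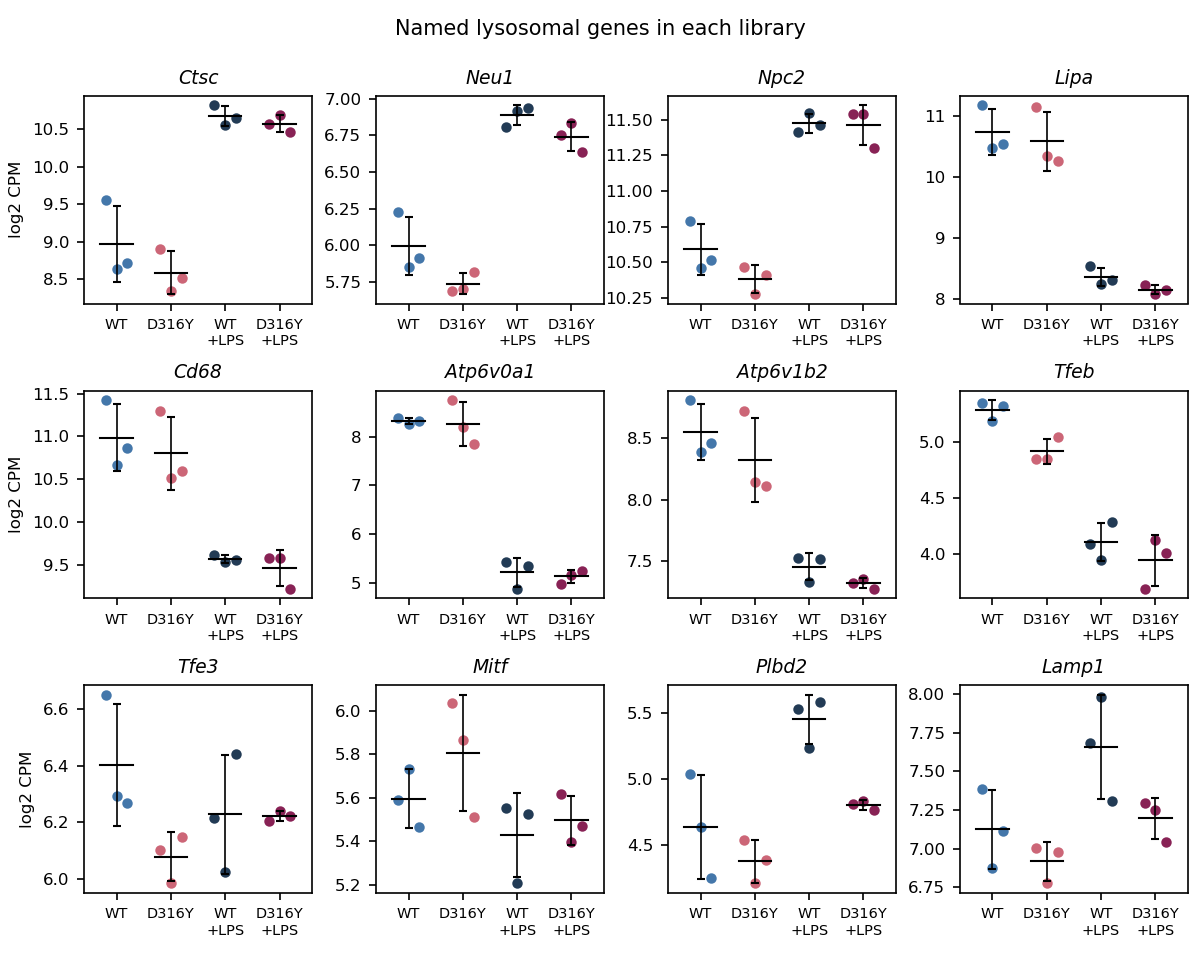
Log2 CPM of 12 named members in each library (points, replicates 1 to 3 from left to right), with the group mean (line) and SD (bar, n = 3) for WT and D316Y, unstimulated and with LPS; each panel has its own axis, which does not start at 0. Lipa, Cd68, Atp6v0a1, Atp6v1b2 and Tfeb lie lower in all 6 LPS libraries than in all 6 unstimulated ones, and Ctsc, Neu1 and Npc2 higher.

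On the deposited scale, the 12 members with CACGTG in a promoter window were largely outside the LPS calls. In WT, 1 of these 12 rose (Lamp1) and none fell, by differences of -0.47 to 0.53 with a median of -0.13, and in D316Y none passed. The call for Lamp1 is one that many alternatives end, as given above. Of the 26 matched members without the letters, 6 rose and 9 fell in each genotype, by -3.10 to 1.70 in WT, with a median of -0.17. Of all genes tested, 18.1% rose and 19.0% fell in WT, and 19.4% and 19.0% in D316Y. The contrast depends on the scale. Scaled to the reads of the table, which moved the median of all genes down, members with CACGTG were called lower too. In WT these were Ctsa, Ctsd, Ctsl, Gaa, Glb1, Mcoln1, Cln3 and Atp6v1a, among 28 of all members. In D316Y they were Ctsa, Ctsd, Ctsl, Cln3 and Atp6v1a, among 26. The split by CACGTG was made with the values known, so it is a description and no test is given.

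The comparison of genotypes asks whether the COQ6 D316Y change alters lysosomal transcripts in resting macrophages. In unstimulated cells, 0 of 45 members passed, where 1 of 11525 genes (0.00868%) passed. At an unadjusted p under 0.05 there was 1 member, Tfeb, beside 337 of all genes (2.92%). Differences ran from -0.43 (Gaa, acid alpha-glucosidase) to 0.21 (Mitf), and the members' 95% intervals lay between -1.14 and 0.65. Most of the members were slightly lower in D316Y: 40 of 45 were negative, with a median of -0.17, where 53.8% of all genes were negative and their median was -0.02. All 18 hydrolases and all 4 cofactors were negative, with medians of -0.21 and -0.20. So were 8 of 9 membrane proteins (median -0.18) and 8 of 11 V-ATPase genes (median -0.05). The exceptions were Cd63, Atp6v0b, Atp6v0e, Atp6v1c1 and Mitf. Same-numbered WT and D316Y libraries deviated together in unstimulated cells, weakly for replicate 3, although no label pairs them. Between same-numbered libraries 1, 2 and 3, D316Y was lower for 35, 40 and 39 of the 45, by medians of -0.13, -0.14 and -0.21. Without both replicate 1 libraries 42 of 45 were negative, with a median of -0.19 and again 0 calls. Without WT replicate 1 alone the count was 27 and the median -0.02, without D316Y replicate 2 or 3 the median was -0.08 and -0.09, and without D316Y replicate 1 or WT replicate 2 it was -0.34 and -0.28.

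Other measures also differed between the unstimulated libraries of the genotypes. Ribosomal protein reads were higher in D316Y than in the same-numbered WT library, 5.18% against 3.59%, 9.19% against 7.45% and 8.57% against 7.27%. Mitochondrially encoded reads were too, 0.949% against 0.449%, 2.97% against 2.15% and 2.21% against 1.97%. No label gives these pairs, the groups overlap without them, and neither share was tested. With LPS both shares were higher in D316Y for replicates 1 and 3. For replicate 2 they were lower (4.31% against 5.15% and 1.02% against 1.08%). The ribosomal and mitochondrial shares are the measures by which unstimulated replicate 1 stood apart, where they were low and the members high. All 10 macrophage markers, of which Cd68 is a member here, were lower in D316Y (median -0.23), and 9 of 10 were lower with LPS (median -0.23). Their summed levels unstimulated, mostly Lyz2, were 43056 to 44547 CPM against 44403 to 47058 in WT. Of the 5 neutrophil markers in the tables, the 4 that reached the level for testing were higher in unstimulated D316Y cells (median 0.76). The summed levels of the 5 were 16.9 to 38.9 CPM against 8.29 to 23.8. Higher too were 5 of 7 osteoclast markers (median 0.15). Monocyte and progenitor markers summed to 103 to 114 CPM in D316Y against 84.2 to 96.4 in WT, with 2 of 5 higher and 3 lower (median -0.38). None of these markers passed the test, and their part in the lower level of the members was not tested.

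Tfeb had the smallest unadjusted p among the members. Its D316Y libraries (4.85, 4.85 and 5.05 log2 CPM) all lay below its WT libraries (5.35, 5.18 and 5.32), a difference of -0.37 (SE 0.14, adjusted p = 0.94). Tfe3 differed by -0.33 (SE 0.16, adjusted p = 0.94) and Mitf by 0.21 (SE 0.18). Neu1 had the smallest p of the hydrolases. It read 6.22, 5.85 and 5.92 in WT and 5.69, 5.70 and 5.82 in D316Y, a difference of -0.26 (SE 0.16) with no overlap. Mcoln1 read 4.90, 4.60 and 4.58 in WT and 4.33, 4.19 and 4.59 in D316Y, which overlap, a difference of -0.32 (SE 0.17). With LPS it read 4.68, 4.12 and 4.85 in WT and 4.06, 4.67 and 4.39 in D316Y, which also overlap. Grn read 11.70, 10.78 and 10.88 in WT and 11.25, 10.45 and 10.55 in D316Y, a difference of -0.37 (SE 0.34), and was lower in D316Y in all 3 pairs. Atp6v1b2 differed by -0.23 (SE 0.23). Plbd2 read 4.54, 4.21 and 4.38 in unstimulated D316Y libraries, which overlap its WT libraries (-0.26, SE 0.21). None of these passed. These errors come from the fit without pairs, although same-numbered libraries deviated together. With a replicate block the adjusted p was 0.13 for Grn, 0.14 for Tfeb, 0.18 for Tfe3, 0.27 for Neu1 and 0.25 for Mcoln1, and the smallest of any member was 0.12 (Gaa). Without both replicate 1 libraries the differences were -0.33 for Grn, -0.30 for Tfeb, -0.21 for Tfe3, -0.12 for Neu1, -0.20 for Mcoln1, -0.29 for Atp6v1b2, -0.14 for Plbd2 and 0.09 for Mitf.

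With LPS, 0 of 45 members passed between genotypes, where 5 of 11306 genes (0.0442%) passed. At an unadjusted p under 0.05 there were 3 members, Plbd2, Lamp1 and Atp6ap1, all lower in D316Y, beside 735 of all genes (6.50%). Again 40 of 45 were negative, with a median of -0.15 (all genes 50.8% negative, median -0.0033), and 38 members were negative in both conditions. The share of all genes negative in both conditions was not counted, and members that vary together are not replicates. The exceptions with LPS were Cln3, Atp6v0b, Atp6v1c1, Atp6v1d and Mitf. Here same-numbered libraries did not deviate together, and the D316Y library was lower than the same-numbered WT library for 34, 20 and 41 of the 45. Without WT LPS replicate 1 the median was -0.09, and without WT LPS replicate 2 it was -0.22, with 37 of 45 negative. The members' 95% intervals lay between -0.93 and 0.36.

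Plbd2 came closest to the threshold. Its 3 WT libraries read 5.53, 5.24 and 5.58 log2 CPM and its 3 D316Y libraries 4.81, 4.83 and 4.76. All 3 D316Y libraries lay below all WT libraries, a 1.57-fold difference (log2 difference -0.65, SE 0.13, adjusted p = 0.24). Without WT LPS replicate 2 it passed (adjusted p = 0.011). Over all alternatives its adjusted p ran from 0.011 to 0.99996, the highest in 1 fit over 4 groups. It was 0.20 with a replicate block and 0.51 when scaled to the table's reads. Without D316Y LPS replicate 1 it was 0.999, and without D316Y LPS replicate 3 it was 0.66. The difference stayed between -0.75 and -0.58. In the authors' deposited table its log2 fold change was -0.724 with an adjusted p of 0.0571. Lamp1 read 7.69, 7.98 and 7.31 in WT and 7.29, 7.25 and 7.05 in D316Y, which just fail to overlap, a difference of -0.46 (SE 0.16, adjusted p = 0.61). Atp6ap1, an accessory subunit of the V-ATPase, read 9.72, 9.22 and 9.45 in WT and 9.14, 9.14 and 9.14 in D316Y (-0.33, SE 0.14, adjusted p = 0.73). Its unstimulated libraries, 9.76, 9.09 and 9.23 in WT and 9.75, 8.96 and 8.98 in D316Y, overlapped. Grn, at 11.38, 10.93 and 11.24 against 10.92, 10.95 and 10.84, differed by -0.28 (SE 0.14) with overlap. Tfeb differed by -0.16 (SE 0.16), Tfe3 by -0.01 and Mitf by 0.07. In the authors' deposited tables, 0 members had an adjusted p under 0.05 in either condition. Of all 12441 genes there, 2 were higher and 5 lower at that level unstimulated, and 4 and 6 with LPS. A negative fold change was deposited for 42 of 45 members unstimulated and 37 of 45 with LPS. The deposited unadjusted p was under 0.05 for 13 and 9 members. The share of all genes at that unadjusted level was not counted, so these member counts cannot be judged against it.

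**Figure D4:**
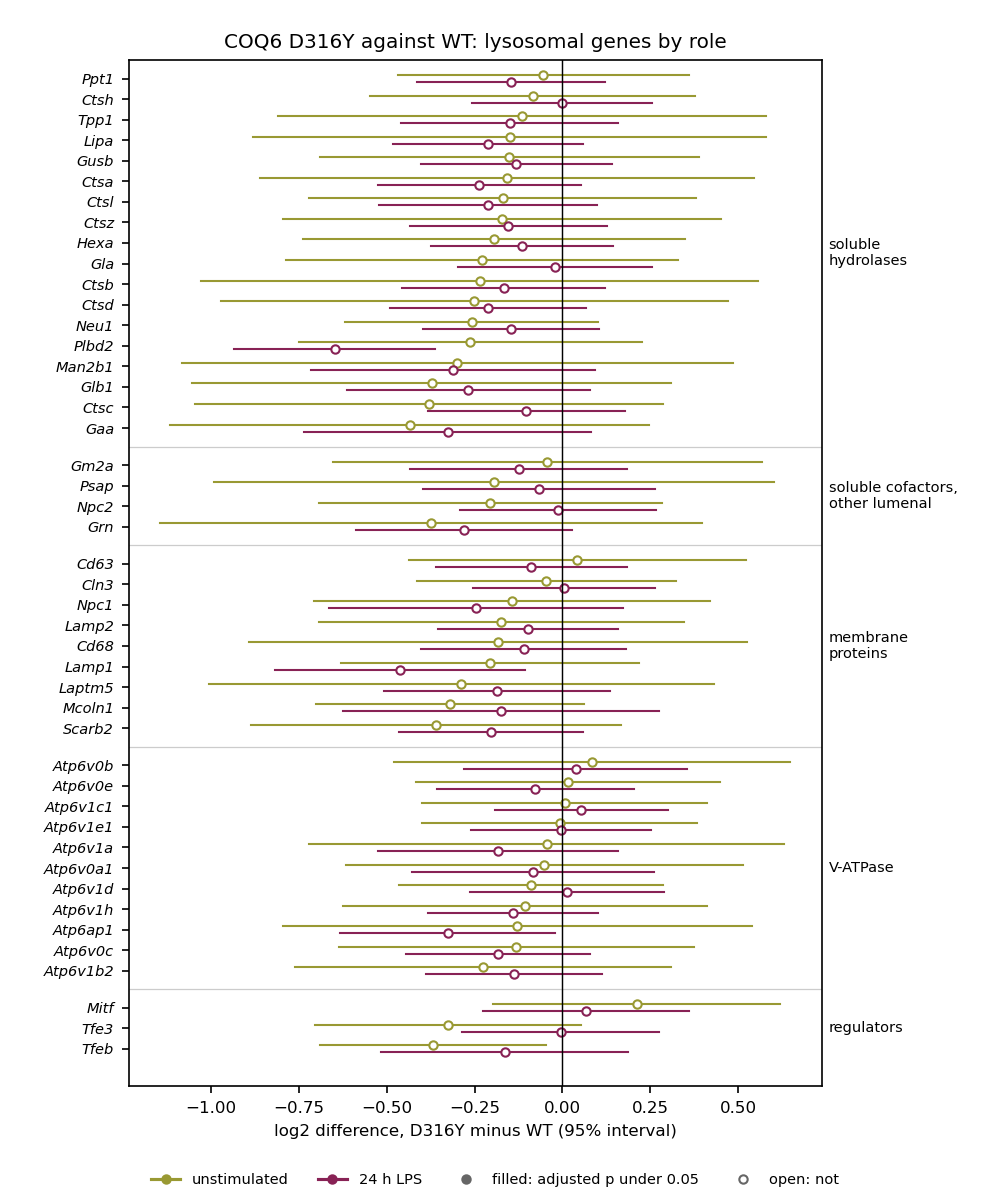
Difference in log2 CPM between D316Y and WT libraries for each of the 45 members, grouped by role, unstimulated and with LPS, with 95% intervals from limma (3 libraries a group); no point is filled because no adjusted p was under 0.05. Most points lie left of 0, 40 of 45 in each condition, and the intervals of 44 members unstimulated and 42 with LPS cross 0.

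The response to LPS was compared between genotypes by the interaction term. It passed for 0 of 45 members, as for 0 of 11918 genes (0%), and at an unadjusted p under 0.05 it held no member and 251 of all genes (2.11%). Plbd2 and Lamp1, which rose in WT and did not pass in D316Y, had interactions of -0.39 (SE 0.25) and -0.26 (SE 0.26), both with an adjusted p of 0.999, so a difference between the genotypes in their response was not shown. Tfe3 had the smallest unadjusted p of the members, with an interaction of 0.32 (SE 0.20). Npc2 had 0.19 (SE 0.22) and Atp6ap1 -0.20 (SE 0.33). The 95% intervals of the 45 interactions lay between -0.93 and 0.98.

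Other genes of the same pathway were counted from fixed lists. Of 42 further lysosomal enzymes tested, 6 rose and 15 fell with LPS in WT, of 35 further membrane proteins and transporters 6 rose and 14 fell, and of 10 further V-ATPase genes 1 rose and 2 fell. Of 18 genes that sense nutrients at the lysosome and control Tfeb and its relatives, 3 rose and 5 fell, and of 27 autophagy genes 6 rose and 5 fell, where 18.1% of all genes rose and 19.0% fell. In D316Y the counts were 8 and 13 of 42, 6 and 14 of 36, 1 and 1 of 10, 1 and 6 of 18, and 5 and 4 of 27, where 19.4% and 19.0% of all genes rose and fell. No gene of these lists passed in either comparison of genotypes or in the interaction. In unstimulated cells 36 of 42 further enzymes were lower in D316Y (median -0.18), 28 of 36 further membrane proteins and transporters (-0.16), 21 of 27 autophagy genes (-0.09), 9 of 18 nutrient-sensing genes (0.01) and 4 of 10 further V-ATPase genes (0.03). With LPS the counts were 34 of 41 (-0.12), 19 of 35 (-0.02), 16 of 26 (-0.03), 8 of 17 (0.04) and 4 of 10 (0.10).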

How the data were processed

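RNA was sequenced from 12 libraries in 4 groups of 3. Per the submitters' processing notes, limma, edgeR, featureCounts 1.4.6-p5 with Subread, STAR 2.5.1a and bcl2fastq were used, with the step of each not stated. Their genome build and annotation were not given in the sources used here. Both tables that the authors deposited list 12493 entries and hold the same log2 CPM values of all 12 libraries, besides the authors' own log2 fold changes, limits, p-values and adjusted p-values of the genotype comparisons, per the file headers. After 52 repeated identifiers were taken once, 12441 genes remained, and GENCODE M21 (GRCm38) gave exon lengths and overlaps. The values had the form log2 of (reads + 0.5) divided by an effective size of the library: 100% of values under 200 reads came within 0.01 of a whole read, which gave the reads and the table's total per library. Read shares are given per library without a test, and they varied between libraries of the same group (9.89%, 6.86% and 7.25% in unstimulated WT).

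Differences were tested on the deposited log2 CPM with limma 3.58.1 in R 4.3.3 (trend and robust eBayes, two-sided), over genes whose mean reached 0 log2 CPM in a compared group, with Benjamini-Hochberg adjustment over all genes tested. Genotypes were compared over the 6 libraries of a condition, and LPS and the interaction over all 12. The fit was tested on simulated data. Same-numbered WT and D316Y libraries correlated in their deviations from the group means by 0.606, 0.527 and 0.154 unstimulated, and by -0.0959, 0.0567 and -0.0190 with LPS. No label states a pairing, and replicate 1, which stood apart unstimulated in both genotypes, enters each group mean, so these values do not settle it. The main fits did not use replicate numbers, and the replicate block did. Library-by-library values are given for the 3 transcription factors, for the largest called rise and fall of each role with LPS in WT, and for the smallest p of each role between genotypes and in the interaction. The alternatives were a replicate block, other filters, median centring, quantile normalization, voom weights, no trend, other sets of libraries, each library left out and, added after the data were seen, scaling to the table's reads. Members, roles, marker lists and pathway lists were chosen with earlier results of these data known. Exons of 16 members overlap those of another gene, 10 of them a gene in the tables, and Cd63 and Atp6v0c have pseudogene copies in the tables, so their reads are uncertain where counting could split them.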

Additional observations from a re-analysis of the deposited data

How the results depend on the processing

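The genotype comparisons gave 0 members in every alternative run except 1, Plbd2 with LPS, without WT LPS replicate 2 (0 to 1 over the libraries left out), and the interaction gave 0 in all. With LPS in WT the rises numbered 7 to 9 and the falls 8 to 12 as single libraries were left out, and in D316Y 7 to 9 and 8 to 14. Scaling to the table's reads gave 3 rises and 28 falls in WT and 3 and 26 in D316Y, and quantile normalization 21 falls in WT and 20 in D316Y. Without both unstimulated replicate 1 libraries, 12 rose in D316Y. With a replicate block the counts were 10 and 16 in WT, 7 and 18 in D316Y, and 0 in both genotype comparisons, where the smallest adjusted p of a member went from 0.942 to 0.117 unstimulated. Members lower in D316Y numbered 36 unstimulated and 33 with LPS after quantile normalization, and 36 and 35 when scaled to the table's reads, against 40 and 40. No called member changed sign in any alternative. Scaled to the table's reads, Lamp2 and Atp6v1h, which had not passed, were called lower in WT (-0.46 and -0.43) and in D316Y (-0.39 and -0.47), and Tfe3 in D316Y (-0.37), by construction of a scale that moves all genes down. With that scale Ctsh, Ctsz, Ppt1 and Atp6v1e1 in both genotypes and Plbd2 and Lamp1 in WT were no longer called, at 0.01 to 0.36. Calls lost to single libraries, beside those named above, were Ctsh in WT (unstimulated replicates 2 and 3, LPS replicate 2, adjusted p 0.065 to 0.072) and Laptm5 in WT (LPS replicate 2, 0.066). In D316Y they were Laptm5 (unstimulated replicate 1 and each LPS library, 0.052 to 0.092), Gusb (unstimulated replicate 1, LPS replicates 1 and 3, 0.050 to 0.068), Npc1 (unstimulated replicate 1, LPS replicates 1 and 2, 0.061 to 0.087), Man2b1 (unstimulated replicate 1, 0.057) and Atp6v1c1 (LPS replicate 3, 0.057). Quantile normalization ended the calls for Ctsh and Atp6v1e1 in both genotypes and for Lamp1 in WT (0.18 to 0.30), and the fit of the 6 WT libraries alone ended those for Ctsh, Lamp1 and Npc1. Without trend and robust estimation Npc1 in WT was lost (adjusted p = 0.066). Depth limits none of the 45, whose lowest count was 471 reads.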

Other observations

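Relatives of several members moved differently from them with LPS; these genes were chosen from the pathway lists after their values were seen. Among the mucolipin channels, Mcoln1 differed by -0.14 in WT and 0.0041 in D316Y, Mcoln2 rose 3.17-fold and 3.36-fold (log2 difference 1.67 and 1.75), and Mcoln3 fell 8.31-fold and 7.06-fold (-3.05 and -2.82). Among the isoforms of the large membrane-sector subunit of the V-ATPase, Atp6v0a1 fell (-3.10 and -3.13) and Atp6v0a2 rose (0.64 in WT, 1.02 in D316Y). Atp6v0d2, an isoform of another membrane-sector subunit that is also an osteoclast marker, fell 18.2-fold in WT and 14.5-fold in D316Y. The acid phosphatases Acp5 and Acp2 rose (3.85 and 1.25 in WT, 3.79 and 1.39 in D316Y), and Acp5, although an osteoclast marker too, went the other way from Atp6v0d2. Clcn7, the chloride-proton exchanger of the lysosome, rose (0.95 and 1.35), and Tpcn1, a cation channel of endosomes and lysosomes, fell (-1.93 and -2.01).

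Of the 18 nutrient-sensing genes, 3 rose and 5 fell with LPS in WT, and 1 rose and 6 fell in D316Y. Of all genes, 18.1% rose and 19.0% fell in WT, and 19.4% and 19.0% in D316Y. The list medians were -0.11 and 0.02. Chosen after their values were seen, 4 genes of the list that act on Tfeb fell in both genotypes. They were the GTPase Rragd (-2.33 in WT, -2.52 in D316Y) and folliculin with its partners, Flcn (-0.92 and -0.57), Fnip1 (-0.78 and -0.84) and Fnip2 (-0.998 and -1.24). Tfec, a relative of Tfeb, rose in WT (0.66), with 0.48 and an adjusted p of 0.051 in D316Y. Whether these changes are connected was not tested.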
